A study of Mus musculus with 2 samples.

Results

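The basement membrane collagens comprise the 6 type IV chains (*Col4a1* to *Col4a6*) and the chains of type VII (*Col7a1*), type XV (*Col15a1*) and type XVIII (*Col18a1*) collagen. They were taken by gene symbol from the RNA-Seq count table, in which all 9 were found among 24421 rows. The table held 1 library of primary chondrocytes from the rib cartilage of newborn mice, released with collagenase and kept for no more than 2 passages. Its other library came from primary dermal fibroblasts of newborn dorsal skin, also released with collagenase. The labels and methods name no strain, genotype or treatment for either culture, and they do not say how many animals each came from. The study compared these cells to narrow down transcription factors that could act on *Sox9* enhancers, and the collagens were not its subject.

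Basement membranes are thin sheets of matrix that lie under epithelia and endothelia and around muscle, fat and Schwann cells. Type IV collagen forms their covalent network, laminins form a second network that binds cells, and nidogens, perlecan and agrin link the layers. The alpha 1 and alpha 2 chains of type IV collagen are found in nearly all basement membranes, whereas the other type IV chains make networks of a few tissues such as kidney, lung, eye and smooth muscle. Type VII collagen forms the anchoring fibrils that hold the epidermal basement membrane to the dermis. Types XV and XVIII are proteoglycan collagens at the matrix side of basement membranes, and endostatin is cut from the end of type XVIII. Hyaline cartilage has no blood vessels, but type IV collagen, perlecan and nidogens have been described in the matrix close around chondrocytes.

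With 1 library per cell type, no difference had a replicate check, and no p-value was computed. Counts were scaled with trimmed mean of M values (TMM) factors, and ratios carry an exact 95% interval. These intervals cover counting error alone and hold no variation between cultures. PCR copies could not be told from separate molecules, so the intervals may be too narrow even for counting error. The libraries held 18788599 counts (chondrocytes) and 17563724 counts (dermal fibroblasts). The labels were checked against defining genes. All 8 genes of a chondrocyte list were over 2-fold higher in the chondrocyte library, with *Col2a1* and *Matn1* at 0 counts in dermal fibroblasts, and 7 of 8 genes of a fibroblast list were over 2-fold higher in the dermal fibroblast library. In both libraries genes of skeletal muscle were also read, with 31215 counts over 8 genes in chondrocytes and 23231 in dermal fibroblasts. In such bulk samples, fewer cells of a type and less RNA per cell cannot be told apart.

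The type IV genes lie in 3 pairs, each with its members on opposite strands and their starts side by side. *Col4a1* (chromosome 8 of GRCm38, 11198423 to 11312889) and *Col4a2* (11312805 to 11449287) start 21 bp apart by their RefSeq start sites, and their annotated spans share 85 bp. *Col4a4* (chromosome 1, 82448419 to 82587034) and *Col4a3* (82586921 to 82722059) start 72 bp apart and share 114 bp of span. For *Col4a3*, the first base of the annotated span was taken as the start. *Col4a6* (chromosome X, 141165403 to 141474095) and *Col4a5* (141475370 to 141689236) start 1343 bp apart by their RefSeq start sites and do not overlap. *Col7a1* lies on chromosome 9 (108953586 to 108984875), *Col15a1* on chromosome 4 (47207655 to 47313167) and *Col18a1* on chromosome 10 (77052178 to 77166530). As the strand setting of the counting is not given in the sources used here, reads in the shared ends of a pair cannot be assigned with certainty.

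Sequence next to the starts of the chains that the results turn on is given here, from RefSeq on GRCm38.p6 and read 5′ to 3′ on the strand of the gene. The *Col4a2* stretch (chr8:11312790-11312819, plus strand) was chosen because it holds the *Col4a2* start, only 21 bp from that of *Col4a1*, and these genes differed by like factors. The *Col4a5* (chrX:141475374-141475403, plus strand) and *Col4a6* (chrX:141474080-141474109, minus strand) stretches belong to the X-linked pair, which differed less. They were placed to show the boxes just before the RefSeq start sites used here (141475419 for *Col4a5* and 141474076 for *Col4a6*). The *Col4a5* stretch lies within the annotated span of its gene, and the *Col4a6* stretch lies partly within its own. The *Col7a1* (chr9:108953466-108953585, plus strand) and *Col18a1* (chr10:77166531-77166650, minus strand) stretches end where the first annotated base of each gene follows. Capitals mark a GC box (GGGCGG) or a CTC box (CCCTCCCC) on either strand.
Col4a2: ccCCCTCCCCtcggcagtgcgcGGGCGGcg
Col4a5: gcgccagcGGGGAGGGGGCGGtgcagggaa
Col4a6: cagcaggcagccCCGCCCcgtccccctcca
Col7a1: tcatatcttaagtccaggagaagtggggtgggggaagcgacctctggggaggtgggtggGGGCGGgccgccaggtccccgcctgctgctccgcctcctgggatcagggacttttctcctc
Col18a1: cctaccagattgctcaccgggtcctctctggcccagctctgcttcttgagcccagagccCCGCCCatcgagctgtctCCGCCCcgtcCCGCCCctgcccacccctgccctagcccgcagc

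RefSeq windows around annotated starts were matched for 8 of the 9 chains (9 windows, as *Col18a1* has 2 starts). Short motifs were searched on both strands, and a match is a description of letters, not a binding site. A GC box was present in 6 of the 9 windows (35.7% of all 32851 windows), the letters CCAAT in 5 (37.4% of all) and a CTC box in 3, those of *Col4a1*, *Col4a2* and *Col4a5* (10.8% of all). The windows of *Col4a1* and *Col4a2* overlap, so that the GC box and the CTC box printed for *Col4a2* are counted in each of them, and in *Col4a5* the CTC box and the GC box share 1 base. The *Col4a6* window held a GC box and no CTC box. The windows of *Col15a1*, of *Col4a4* and of the *Col18a1* start that is not printed held no GC box, no CCAAT and no CTC box. The letters TATAAA (13.6% of all windows), AACAAT, a core of SOX motifs (10.7%), and TGANTCA, the AP-1 motif (7.81%), were in 0 of the 9. The start windows of *Col4a1* and *Col4a2* were 74.0% and 73.7% G or C, against a median of 52.7% over all windows.

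Basement membrane collagens were mostly higher in dermal fibroblasts. Of the 9 chains, 8 had at least 10 counts in 1 library, and 5 of these 8 (*Col4a1*, *Col4a2*, *Col7a1*, *Col15a1* and *Col18a1*) were over 2-fold higher in dermal fibroblasts, against 16.2% of all 14291 genes with at least 10 counts in 1 library. One chain, *Col4a4*, was over 2-fold higher in chondrocytes, against 11.8% of all these genes. The whole counting interval lay beyond 2-fold for the same 5 chains in dermal fibroblasts (10.8% of all genes) and for *Col4a4* in chondrocytes (7.21% of all genes). *Col4a5* and *Col4a6* were within 2-fold, and *Col4a3* was near the limit of detection in both libraries. The median log2 difference of the 8 chains, dermal fibroblasts over chondrocytes, was 1.74, against 0.0035 for all genes tested.

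*Col4a1*, the alpha 1 chain of the general type IV network, had 8178 counts in chondrocytes against 41794 in dermal fibroblasts. It was 4.98-fold higher in dermal fibroblasts, with an interval of 4.86 to 5.10. *Col4a2*, its partner chain in the trimer, had 5683 and 28175 counts and was 4.83-fold higher (interval 4.69 to 4.97). The intervals of the 2 folds overlapped. Per length, as reads per kilobase of the longest annotated transcript scaled to library size (RPKM), *Col4a1* stood at 69.0 in chondrocytes and 343 in dermal fibroblasts. *Col4a2* stood at 49.2 and 237 RPKM. These were the 2 highest levels among the 9 chains in each library.

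The balance between both chains was nearly the same in the 2 libraries, and this measure does not depend on scaling. *Col4a1* made up 59.0% of the *Col4a1* and *Col4a2* reads in chondrocytes (exact interval 58.2% to 59.8%) and 59.7% in dermal fibroblasts (interval 59.4% to 60.1%). Per length, the ratio of *Col4a1* to *Col4a2* was 1.40 in chondrocytes and 1.45 in dermal fibroblasts. The ratio of the 2 read ratios, dermal fibroblasts over chondrocytes, was 1.03, with an exact interval from 0.993 to 1.07. At this depth a difference in the balance was not detectable.

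**Figure D1:**
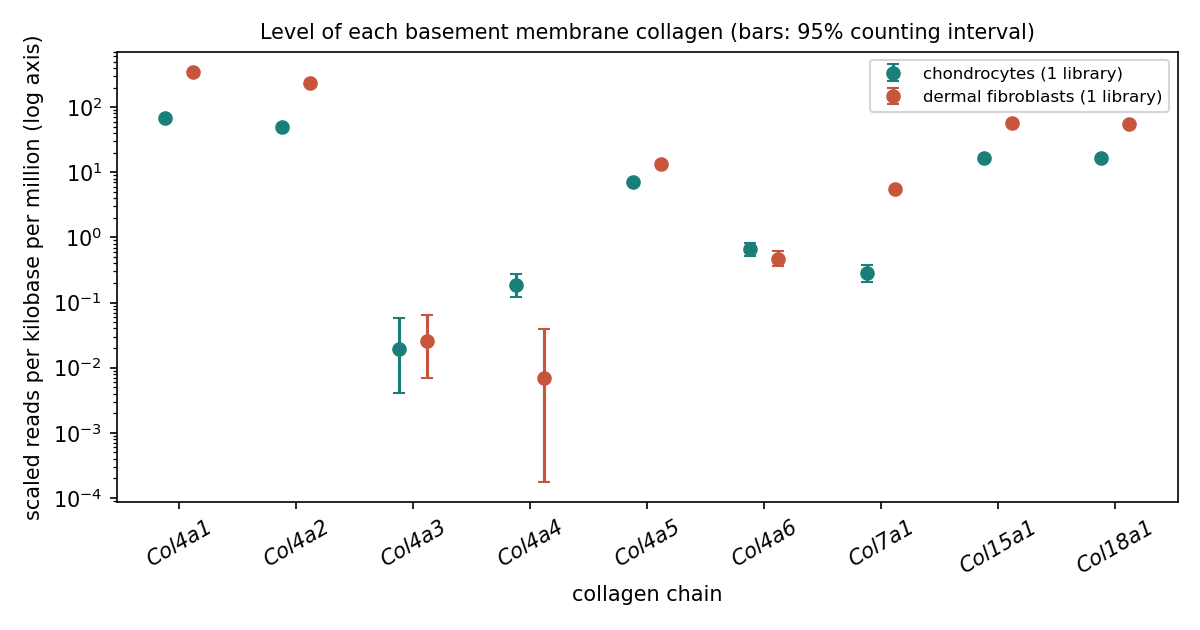
Level of each chain in the chondrocyte and dermal fibroblast library, as reads per kilobase of transcript scaled to library size (RPKM) on a log axis; points are 1 library each and bars are exact 95% counting intervals. *Col4a1* and *Col4a2* lead in both libraries, at 69.0 and 49.2 in chondrocytes and 343 and 237 in dermal fibroblasts, and *Col4a3* and *Col4a4* lie lowest in dermal fibroblasts.

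The pair on the X chromosome differed less between the libraries. *Col4a5*, which joins the alpha 3 and alpha 4 chains in kidney and the alpha 6 chain in skin and smooth muscle, had 833 counts in chondrocytes against 1627 in dermal fibroblasts. It was 1.90-fold higher in dermal fibroblasts, with an interval of 1.75 to 2.07, a value next to the 2-fold threshold, and it reached 2.09-fold when scaled by total counts. *Col4a6*, the alpha 6 chain, had 79 and 58 counts and was 1.40-fold higher in chondrocytes, with an interval from 0.984 to 1.999 that includes no difference. The members of this pair therefore did not hold a fixed ratio. *Col4a5* took 91.3% of their reads in chondrocytes (interval 89.3% to 93.1%) and 96.6% in dermal fibroblasts (interval 95.6% to 97.4%). The ratio of *Col4a5* to *Col4a6* reads was 2.66 times as high in dermal fibroblasts (exact interval 1.85 to 3.84).

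*Col4a3* and *Col4a4* encode the chains that are lost or altered, with *Col4a5*, in Alport syndrome of the kidney. *Col4a3* had 3 counts in chondrocytes against 4 in dermal fibroblasts, a ratio of 1.30 (interval 0.220 to 8.86), and no difference could be detected at this depth. *Col4a4* had 26 counts in chondrocytes against 1 in dermal fibroblasts. Its ratio of scaled counts was 26.7 in favour of chondrocytes, with a wide counting interval from 4.39 to 1095, and it was 8.90 when counts under 3 were set to 3. Its level in chondrocytes, 0.186 RPKM, was low beside the 69.0 RPKM of *Col4a1* in the same library. *Col4a4* took 89.7% of the reads of the pair in chondrocytes (interval 72.6% to 97.8%) and only 1 read, against 4 of *Col4a3*, in dermal fibroblasts, a share with an interval from 0.505% to 71.6%.

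*Col7a1*, the anchoring fibril collagen, had the largest difference towards dermal fibroblasts among the 9 chains. It had 47 counts in chondrocytes against 929 in dermal fibroblasts and was 19.2-fold higher there (interval 14.4 to 26.4). Of the genes tested, 99.1% had a smaller difference in this direction. Its level was 0.283 RPKM in chondrocytes and 5.46 RPKM in dermal fibroblasts. Keratinocytes also make type VII collagen, and keratinocyte genes differed in the same direction. A list of 8 keratinocyte genes summed to 161 counts in chondrocytes against 4686 in dermal fibroblasts. Of the 7 with at least 10 counts in 1 library, 5 passed 2-fold towards dermal fibroblasts, against 16.2% of all genes tested. *Krt14* had 17 and 1939 counts, *Krt5* had 1 and 1693 and *Dsp* had 27 and 722, while *Dsg3* had 0 and 105 and *Krt15* was near 0 in both libraries (1 and 2 counts). The part of keratinocytes in the *Col7a1* reads was not tested.

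*Col15a1* and *Col18a1*, the proteoglycan collagens, differed by almost the same factor. *Col15a1* had 1563 counts in chondrocytes against 5417 in dermal fibroblasts and was 3.37-fold higher in dermal fibroblasts, with an interval of 3.19 to 3.57. *Col18a1* had 1912 and 6534 counts and was 3.33-fold higher (interval 3.16 to 3.50). Their own balance, looked at after these values were seen, hardly moved. *Col18a1* made up 55.0% of the reads of the 2 genes in chondrocytes (interval 53.3% to 56.7%) and 54.7% in dermal fibroblasts (interval 53.8% to 55.6%). These genes lie on different chromosomes. Per length, *Col15a1* stood at 16.9 and 56.9 RPKM and *Col18a1* at 16.8 and 56.0 RPKM in chondrocytes and dermal fibroblasts. *Col18a1* has long and short transcripts from different starts that gene counts do not separate, and with its 5063-base transcript in place of the 6338-base one its levels were 21.1 and 70.1 RPKM.

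**Figure D2:**
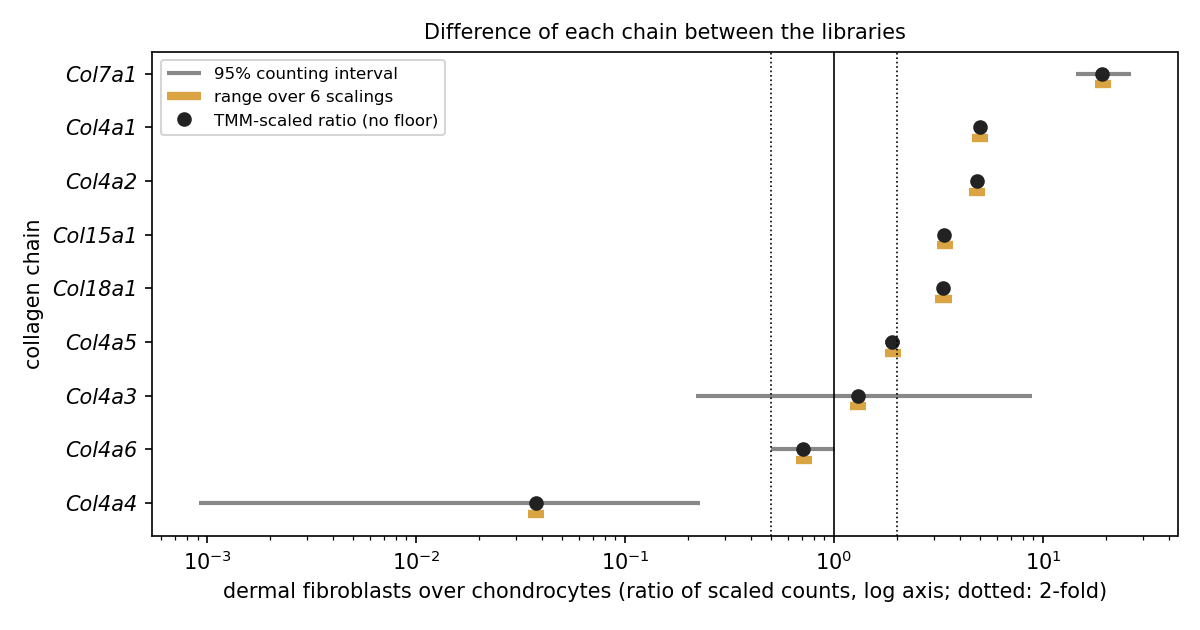
Ratio of scaled counts, dermal fibroblasts over chondrocytes, for the 9 chains on a log axis; grey lines are exact 95% counting intervals, yellow lines the range over 6 scalings, and dotted lines mark 2-fold. *Col7a1* lies farthest to the right at 19.2, *Col4a1* with *Col4a2* and *Col15a1* with *Col18a1* lie next to each other, *Col4a5* lies at the 2-fold line and *Col4a4*, with 26 counts against 1, lies farthest to the left.

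The order of the chains by level per length was similar in the 2 libraries. In each library it ran from *Col4a1* through *Col4a2*, the *Col15a1* and *Col18a1* pair and then *Col4a5*. *Col15a1* and *Col18a1* had overlapping intervals in each library, and their order depended on the transcript chosen. In chondrocytes *Col4a6* came next (0.663 RPKM), followed by *Col7a1* and *Col4a4*, whose intervals overlapped (0.208 to 0.377 and 0.121 to 0.272 RPKM). In dermal fibroblasts *Col7a1* stood above *Col4a6* (5.46 against 0.474 RPKM). *Col4a3* (0.0254 RPKM) and *Col4a4* (0.00696 RPKM) were lowest there, with overlapping intervals.

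As shares of the reads of all 9 chains, *Col4a1* and *Col4a2* differed between the libraries by a smaller factor than the other chains did. *Col4a1* and *Col4a2* took 44.6% and 31.0% in chondrocytes and 49.4% and 33.3% in dermal fibroblasts. *Col4a5* took 4.55% in chondrocytes (interval 4.25% to 4.86%) and 1.92% in dermal fibroblasts (interval 1.83% to 2.02%). *Col15a1* and *Col18a1* took 8.53% and 10.4% in chondrocytes and 6.41% and 7.73% in dermal fibroblasts. *Col7a1* took 0.256% in chondrocytes and 1.10% in dermal fibroblasts. *Col4a6* took 0.431% and 0.0686%, and *Col4a4*, with 26 counts and 1, took 0.142% and 0.00118%. For each of these chains the counting intervals of both shares lay apart.

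Among collagens at large, the basement membrane chains were a small part of the reads. Over 44 collagen genes in the table, they made up 0.801% of 2288189 collagen reads in chondrocytes (interval 0.789% to 0.812%) and 6.33% of 1334670 in dermal fibroblasts (interval 6.29% to 6.38%). The low share in chondrocytes held *Col2a1*, the main collagen of cartilage, in its denominator, and without *Col2a1* it was 2.18%. Of all counts in a library, the 9 chains took 0.0975% in chondrocytes and 0.481% in dermal fibroblasts. *Col7a1* had the second largest fold towards dermal fibroblasts among the 42 collagens with at least 10 counts, and *Col4a1* ranked 8 and *Col4a2* ranked 10. The last collagen over 2-fold in this direction was *Col6a3*, at rank 20 of 42 with 2.52-fold. A difference of this size towards dermal fibroblasts was therefore also found in collagens outside the 9 chains. By level per length, *Col4a1* ranked 18 of 41 collagens in chondrocytes and 9 of 41 in dermal fibroblasts.

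**Figure D3:**
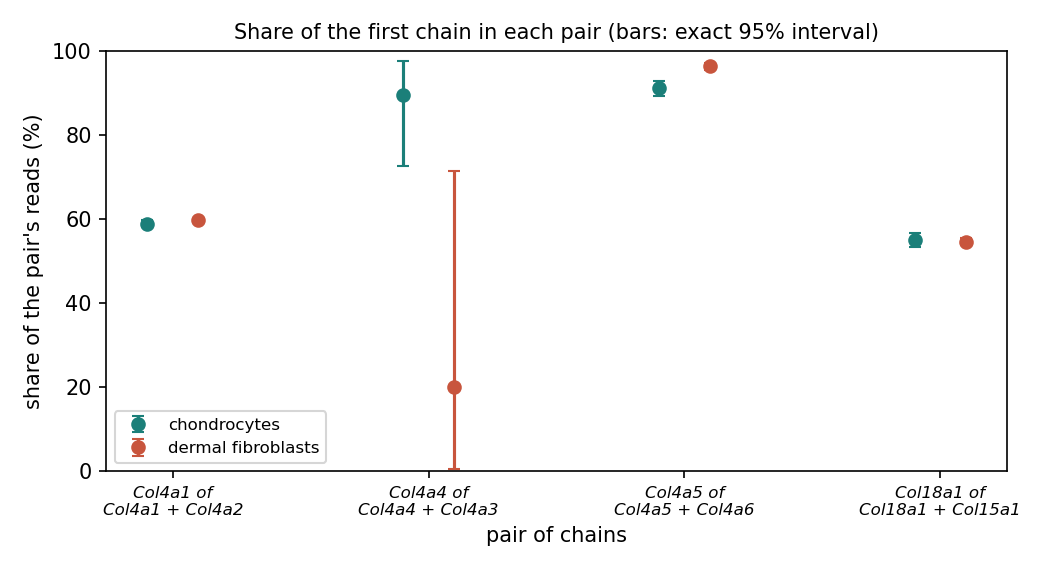
Share of the first-named chain in the reads of a pair, in percent, for 3 type IV gene pairs and for *Col18a1* with *Col15a1*; points are 1 library each and bars are exact 95% intervals. The share of *Col4a1* is 59.0% in chondrocytes and 59.7% in dermal fibroblasts, whereas that of *Col4a5* is 91.3% and 96.6%, and the *Col4a4* share rests on 26 and 1 reads of *Col4a4* and 3 and 4 of *Col4a3*.

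The laminins, which form the cell-binding network of basement membranes, were also mostly higher in dermal fibroblasts. Of 10 laminin genes, 6 passed 2-fold towards dermal fibroblasts, 1 passed it towards chondrocytes and 3 stayed within it, against 16.2% and 11.8% of all genes. Their median log2 difference was 1.71, against 0.0035 for all genes. *Lamb1* and *Lamc1*, the beta and gamma chains of most laminins, had 2832 and 4361 counts in chondrocytes against 14000 and 16760 in dermal fibroblasts. They were 4.81-fold (interval 4.62 to 5.01) and 3.74-fold (interval 3.62 to 3.87) higher in dermal fibroblasts. The interval of the 4.98-fold of *Col4a1* (4.86 to 5.10) overlapped that of *Lamb1* and lay above that of *Lamc1*. *Lama2*, the alpha chain of muscle and nerve laminin, was 6.58-fold higher (442 and 2987 counts), and *Lama4*, found in vessels, fat and mesenchyme, was 2.86-fold higher (3602 and 10593 counts).

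*Lama3* and *Lamb3*, which encode laminin chains of the epidermal junction where *Col7a1* acts, differed from each other. *Lama3* had 5 counts in chondrocytes against 413 in dermal fibroblasts and was 80.4-fold higher (interval 34.2 to 249). *Lamb3* had 296 and 393 counts and a fold of 1.29. *Lamc3* had 5 and 92 counts and was 17.9-fold higher in dermal fibroblasts. *Lama5* was the laminin over 2-fold higher in chondrocytes, with 901 counts against 261, a 3.55-fold difference (interval 3.09 to 4.09). *Lama1* (153 and 302 counts) and *Lamb2* (7050 and 5981 counts) were within 2-fold, but *Lama1* was 2.11-fold higher in dermal fibroblasts with scaling by total counts.

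The linkers and associated proteins leaned the other way. Of 9 such genes, 0 passed 2-fold towards dermal fibroblasts, 5 passed it towards chondrocytes and 4 stayed within it. Among all genes tested, 16.2% passed it towards dermal fibroblasts and 11.8% towards chondrocytes. The median log2 difference of the 9 genes was -1.11. *Hspg2*, which encodes perlecan, a heparan sulfate proteoglycan of basement membranes and of cartilage, had 49320 counts in chondrocytes against 23490 in dermal fibroblasts and was 2.16-fold higher in chondrocytes (interval 2.12 to 2.19). *Nid2* had 15835 and 1892 counts and was 8.60-fold higher in chondrocytes (interval 8.20 to 9.02), while *Nid1*, the other nidogen, had 8459 and 16306 counts and was 1.88-fold higher in dermal fibroblasts. *Tinagl1*, *Smoc1* and *Smoc2*, secreted proteins of basement membranes and matrix, were 2.41-fold, 3.82-fold and 2.43-fold higher in chondrocytes. *Agrn* (4540 and 4006 counts), *Sparc*, a collagen-binding protein (120019 and 115617 counts), and *Npnt* (924 and 603 counts) were within 2-fold. With scaling by total counts, *Nid1* passed 2-fold towards dermal fibroblasts (2.06) and *Hspg2* no longer passed it towards chondrocytes (1.96). This left 4 of the 9 genes over 2-fold there, and of the nidogens, perlecan and agrin only *Nid2* was among them.

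Per length, the level of *Hspg2* was 2.81 times that of *Col4a1* in chondrocytes and 0.262 times in dermal fibroblasts. *Nid2* took 65.2% of the nidogen reads in chondrocytes (interval 64.6% to 65.8%) and 10.4% in dermal fibroblasts (interval 9.96% to 10.8%). These ratios were picked after the folds were seen and restate them within each library.

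**Figure D4:**
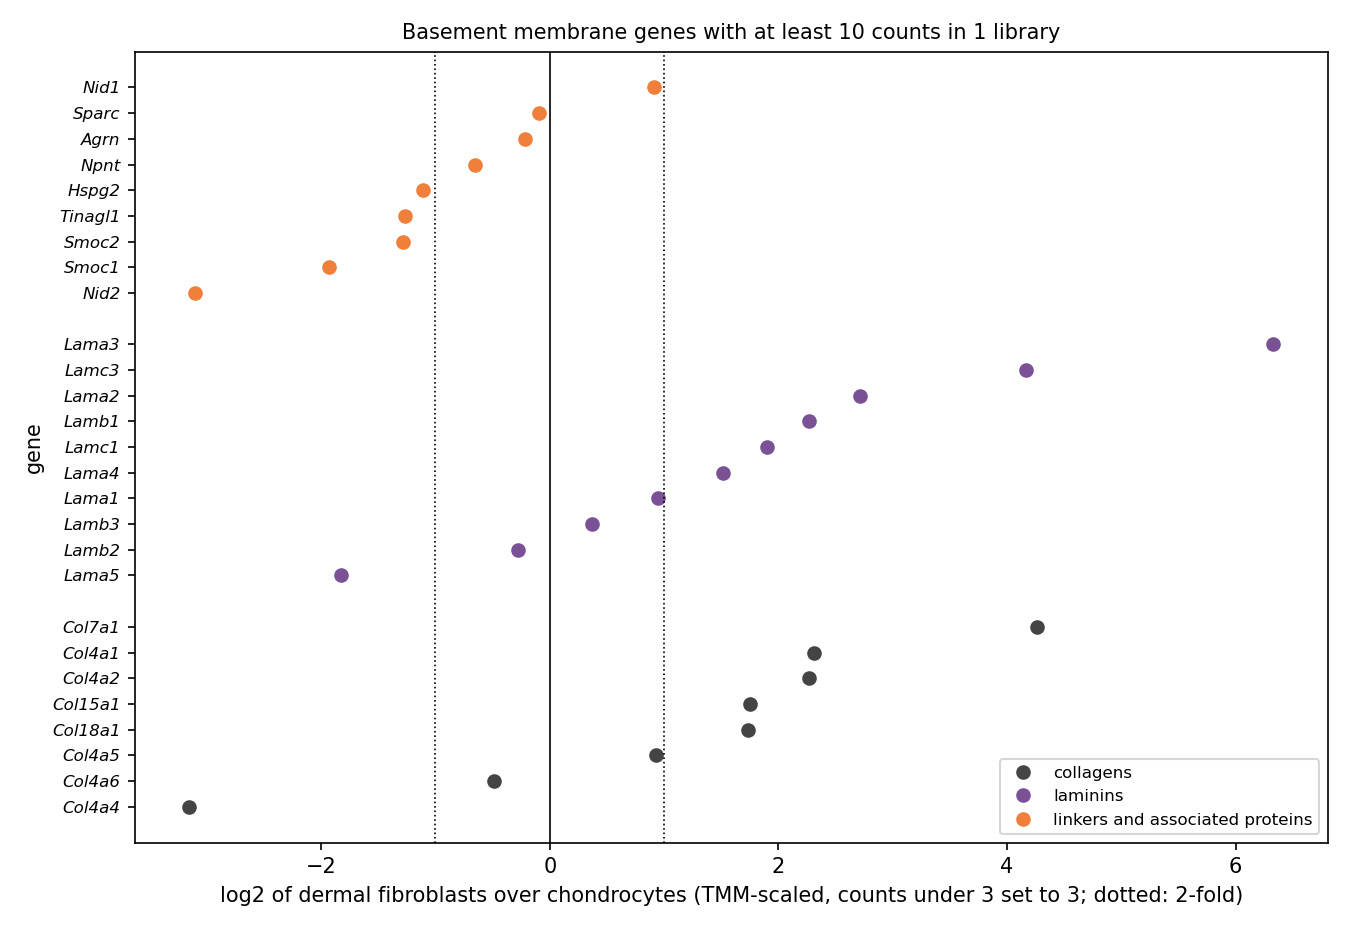
Log2 difference, dermal fibroblasts over chondrocytes, of the basement membrane collagens, the laminins, and the linkers and associated proteins with at least 10 counts in 1 library. Each point is 1 gene and dotted lines mark 2-fold. Of the linkers and associated proteins 0 of 9 lie beyond the right dotted line, against 5 of 8 collagens, 6 of 10 laminins and 16.2% of all genes tested.

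Other partners of anchoring fibrils were mixed. Of 9 genes on this list, *Lama3* and *Lamb3* among them, 3 were over 2-fold higher in dermal fibroblasts and 1 was over 2-fold higher in chondrocytes. The shares over all genes tested were 16.2% and 11.8%. *Col17a1*, a transmembrane collagen of hemidesmosomes, had 79 and 434 counts and was 5.35-fold higher in dermal fibroblasts. *Bmp1*, a protease that trims procollagens, type VII included, had 2363 and 11232 counts and was 4.63-fold higher. *Itga6*, a laminin receptor subunit, was the gene over 2-fold higher in chondrocytes (2251 and 938 counts). *Plec* and *Dst*, which encode cytoskeletal linkers, had folds of 1.72 and 0.938, dermal fibroblasts over chondrocytes.

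Markers of several cell types that lie on basement membranes were mostly higher in dermal fibroblasts. For comparison, 16.2% of all genes tested passed 2-fold towards dermal fibroblasts and 11.8% towards chondrocytes. The 8 endothelial genes summed to 375 counts in chondrocytes and 1431 in dermal fibroblasts, with 0 of 8 at 0 counts in either library and 7 over 2-fold higher in dermal fibroblasts. *Flt1* had 97 and 446 counts, *Kdr* 70 and 276, *Cdh5* 68 and 198 and *Vwf* 18 and 157. Of 9 genes of pericytes and smooth muscle, 6 were over 2-fold higher in dermal fibroblasts and 1, *Cspg4*, in chondrocytes (10824 and 2976 counts). *Notch3* (1458 and 757 counts) and *Rgs5* (48 and 33 counts) were within 2-fold, with more counts in chondrocytes. Of the 6, *Acta2* (9075 and 25773 counts) and *Pdgfrb* (3719 and 19453 counts) are also expressed by fibroblasts. Of 5 adipocyte genes, 3 passed 2-fold towards dermal fibroblasts (2445 and 6283 counts in all). Of the 5 tested of 6 Schwann cell genes, 3 passed 2-fold towards dermal fibroblasts, with *Sox10* at 25 and 310 counts. The 1 that passed it towards chondrocytes was *S100b* (2657 and 87 counts), which chondrocytes also express. With *S100b* included, the sum of the 6 genes leaned the other way, at 3097 counts in chondrocytes and 1364 in dermal fibroblasts. Of 8 skeletal muscle genes, 0 passed 2-fold towards dermal fibroblasts and 4 passed it towards chondrocytes. With *Actb* as the scale, *Emcn* was under 2-fold (1.92), which left 6 endothelial genes, and *Notch3* passed 2-fold towards chondrocytes (2.15), and with total counts *Myog* was under it (1.91), which left 3 muscle genes. The part of these cell types in the collagen reads was not tested.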

How the data were processed

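The authors prepared 1 stranded mRNA library of each cell type, read them in single-end mode and mapped the reads to mm10. The submitters' processing notes name CASAVA 1.8.2, TopHat2 2.0.13, Bowtie2 2.2.3 and SAMtools 0.1.19. The deposited values are raw counts of reads for each gene symbol. The counting program, annotation and strand setting are not given in the sources used here. A gene's count can therefore include reads of a gene overlapping it on the other strand.

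Counts were scaled with TMM factors (edgeR 4.0.16, R 4.3.3), and ratios were computed with Python 3.11.15, numpy 2.4.6, pandas 2.3.3 and scipy 1.17.1. Counts under 3 were set to 3 for folds. Genes with at least 10 counts in 1 library were compared (14291), and a fold over 2 was counted. Intervals are 95% Clopper-Pearson, Poisson or conditional exact intervals. The calculations were tested on simulated data with Poisson counting error alone. These held no PCR copies and no variation between cultures, so the test does not bear on either. Lengths are those of the longest protein-coding transcript of GENCODE vM1, and positions and sequences are RefSeq's on GRCm38.p6. Alternatives were 5 other scalings (DESeq2 1.42.0 among them), floors of 1 and 10 counts, a pseudocount of 1, no filter and stricter thresholds.

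The members and lists were chosen with earlier results of these data known. Named were all 9 chains, the laminins, nidogens, *Hspg2* and *Agrn*, and from the other lists the 3 genes with the most counts and the largest fold each way among genes with at least 100 counts. For marker lists, only sums and some of these genes are given. Further genes were named after their values were seen. A gene left out of the lists and their counts is not reported here.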

Additional observations from a re-analysis of the deposited data

How the results depend on the processing

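No paired analysis was possible because there was 1 library a group, and for the same reason none could be left out. Over 6 scalings, 2 other floors, a pseudocount and no filter, 5 chains were over 2-fold higher in dermal fibroblasts and 1 in chondrocytes, except that scaling by total counts added *Col4a5* and gave 6. A fold over 4 left 3 chains higher in dermal fibroblasts and 1 in chondrocytes. For all genes, a fold over 4 gave 929 higher in dermal fibroblasts and 713 higher in chondrocytes, against 2319 and 1684, and requiring the whole interval beyond 2-fold gave 1546 and 1031. Of 72 fold values of the chains under the alternatives, 13 lay outside the counting interval and 0 changed the direction of a chain over 2-fold. Relative to TMM, total counts moved the log2 value of chondrocytes over dermal fibroblasts by -0.14 and *Actb* moved it by 0.12, so that *Col4a1* ranged from 4.57-fold to 5.47-fold and *Col7a1* from 17.7-fold to 21.1-fold. Per kilobase, the *Col4a1* share of its pair in dermal fibroblasts was 59.1%. Without *Col2a1*, the basement membrane chains took 2.18% of collagen reads in chondrocytes, and without *Col1a1*, *Col1a2* and *Col3a1* they took 0.839% in chondrocytes and 17.9% in dermal fibroblasts. Depth limits *Col4a3* and *Col4a4*, which have under 30 counts in all.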

Other observations

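Genes for the folding, modification and crosslinking of collagen were mostly similar in the 2 libraries or higher in chondrocytes. Of 17 such genes, 0 passed 2-fold towards dermal fibroblasts, 4 passed it towards chondrocytes and 13 stayed within it. Among all genes tested, 16.2% passed it towards dermal fibroblasts and 11.8% towards chondrocytes. The median log2 difference of the 17 genes, dermal fibroblasts over chondrocytes, was -0.40. With scaling by total counts, *P4ha3* passed 2-fold towards dermal fibroblasts (2.17) and *P4ha1* no longer passed it towards chondrocytes (2.10 before, 1.91 then), which left 3 there. *Serpinh1*, the collagen chaperone, had 61409 counts in chondrocytes against 44336 in dermal fibroblasts. *P4hb*, a subunit of prolyl 4-hydroxylase, had 35923 and 27950. *Loxl2*, a crosslinking enzyme, had 8487 and 6723. *Pxdn*, the peroxidase that forms the sulfilimine crosslink of type IV collagen, had 2485 and 3439 counts and was 1.35-fold higher in dermal fibroblasts, with an interval of 1.28 to 1.42, against 4.98-fold for *Col4a1*. The enzymes that add hydroxyl groups and sugars to collagen chains differed among themselves (*Pxdn*, *Colgalt1*, *P3h2* and *Plod2* were picked after their values were seen). *Colgalt2*, a collagen galactosyltransferase, had 785 counts in chondrocytes against 15 in dermal fibroblasts, while *Colgalt1*, the other galactosyltransferase, had 3767 and 4130. *P3h2*, a prolyl 3-hydroxylase that acts on type IV collagen, had 1363 and 117 counts and was 11.97-fold higher in chondrocytes, against the direction of *Col4a1* and *Col4a2*. *Plod2*, a lysyl hydroxylase, had 11831 and 1950 counts and was 6.23-fold higher in chondrocytes. *P4ha3* was the gene of the list with the largest fold towards dermal fibroblasts, at 1.97.

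Other collagens lay near the chains in their fold. The nearest log2 difference to that of *Col4a1* (2.31) and *Col4a2* (2.27) among the other collagens was that of *Col5a3* (2.28, with 1790 and 8927 counts). *Col15a1* (1.75) was nearest to *Col5a2* (1.76) and *Col18a1* (1.73) to *Col15a1*. *Col7a1* (4.27) was nearest to *Col6a5* (4.55), which had 4 counts in chondrocytes against 96 in dermal fibroblasts. *Col4a5* (0.93) was nearest to *Col6a3* (1.34), *Col4a6* (-0.48) to *Col16a1* (-0.47) and *Col4a4* (-3.15) to *Col19a1* (-2.77). Likeness here is a difference of folds over 2 libraries.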
